A study of Mus musculus with 11 samples.

Results

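Emp1 and the other genes of the PMP22 family, Emp2, Emp3 and Pmp22, were followed in mouse embryonic stem cells (ESCs) in which the Polycomb gene Cbx6 was knocked down. The 4 members were found by symbol among the 23288 distinct gene symbols of the expression table. Emp1 was selected because it was among the clearest falls in this comparison, so its values are a description and carry no test. The paralogs were selected by family membership, with earlier results of these data known.

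The study used E14Tg2A ESCs, a mouse line grown feeder free on gelatin in serum and LIF, and asked what CBX6 does in them. For RNA-seq, the cells were infected with pLKO lentivirus carrying either a control shRNA (shCtl, 2 libraries) or an shRNA against Cbx6 (shCbx6, 2 libraries), and which Cbx6 shRNA each library received is not given in the sources used here. For ChIP-seq, 4 peak lists were available. Of these, 2 were replicates of anti-HA ChIP in a clonal ESC line whose own CBX6 carries a 3×HA tag. The others were 1 list each for CBX7 and RING1B. The sample titles of all 4 name no shRNA. The HA control and IgG samples among the 11 samples were not analysed here. The labels do not say that replicates came from separate cultures, so p-values measure the spread between these libraries, which may be technical.

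The PMP22 family belongs to the claudin superfamily of small membrane proteins that span the membrane several times and have short extracellular loops. PMP22 is a main protein of compact peripheral myelin, made by Schwann cells, and changes in its gene dosage cause inherited neuropathies. The EMPs, or epithelial membrane proteins, are found in epithelia and many other tissues, where they have been tied to cell adhesion, membrane composition and growth arrest. CBX6 and CBX7 are chromodomain proteins of Polycomb repressive complex 1, and RING1B is the ubiquitin ligase of that complex, which is concentrated at CpG-rich starts of silent developmental genes.

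The starts of the 4 genes differed in CpG content, and the bases just before them are shown because the peaks described further on that cover a start lie at the CpG-rich ones. Each run is the 250 bases before an annotated start, read 5′ to 3′ on the gene's strand from the mm9 assembly with GENCODE starts, with CG dinucleotides in capitals. The first Emp1 start (chr6:135312699-135312948, plus strand) had 3 CG in the run, the only Emp2 start (chr16:10314062-10314311, minus strand) 11, and the first Emp3 start (chr7:53176797-53177046, minus strand) 3. Of the 5 Pmp22 starts, the first (chr11:62942234-62942483, plus strand) had 3 and the next (chr11:62944764-62945013), within the first intron of the longest transcript, 16.
Emp1, first start: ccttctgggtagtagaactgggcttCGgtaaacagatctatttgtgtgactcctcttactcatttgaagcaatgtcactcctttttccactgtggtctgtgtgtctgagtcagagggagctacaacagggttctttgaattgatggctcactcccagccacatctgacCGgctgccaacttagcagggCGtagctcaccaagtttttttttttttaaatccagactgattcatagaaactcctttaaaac
Emp2, only start: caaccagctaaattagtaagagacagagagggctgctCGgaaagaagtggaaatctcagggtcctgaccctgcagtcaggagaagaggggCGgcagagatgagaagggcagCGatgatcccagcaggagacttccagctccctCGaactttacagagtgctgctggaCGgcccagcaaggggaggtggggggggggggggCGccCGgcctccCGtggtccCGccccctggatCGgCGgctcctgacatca
Emp3, first start: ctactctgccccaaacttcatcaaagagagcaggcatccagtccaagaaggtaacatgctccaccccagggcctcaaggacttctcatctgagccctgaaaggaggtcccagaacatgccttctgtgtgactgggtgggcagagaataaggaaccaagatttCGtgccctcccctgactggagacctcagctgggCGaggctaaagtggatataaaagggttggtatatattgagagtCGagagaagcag
Pmp22, first start: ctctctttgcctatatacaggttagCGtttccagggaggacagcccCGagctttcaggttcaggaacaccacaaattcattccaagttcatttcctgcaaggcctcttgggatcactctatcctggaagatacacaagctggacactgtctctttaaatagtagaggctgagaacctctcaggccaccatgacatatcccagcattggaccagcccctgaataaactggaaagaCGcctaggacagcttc
Pmp22, next start: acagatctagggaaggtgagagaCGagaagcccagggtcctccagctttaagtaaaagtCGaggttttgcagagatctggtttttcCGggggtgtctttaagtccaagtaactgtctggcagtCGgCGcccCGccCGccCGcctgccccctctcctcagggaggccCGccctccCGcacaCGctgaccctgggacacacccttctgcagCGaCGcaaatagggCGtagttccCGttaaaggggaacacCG

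Counted over 300 bases, 250 before to 50 after the start, the windows were set beside 32851 RefSeq promoter windows (assembly GRCm38.p6), whose median was 7 CG and 52.7% GC. Of the 10 windows of the members, 8 were identical to a window of that table. The first Emp1 window held 5 CG and 46.7% GC, more CG than 38.0% of all windows. The Emp2 window held 16 CG and 65.7% GC, more than 67.0%, and the first Emp3 window 4 CG and 52.7% GC, more than 31.4%. The second Emp3 window held 2 CG, the fewest in the family. Pmp22 ranged from 3 CG at its first start to 30 CG at the fourth, 3821 bp downstream, which had more CG than 88.3% of all windows. CpG-poor here means under that median of 7 CG, and CpG-rich means over it. Emp1 and Emp3 thus had only CpG-poor annotated starts, Emp2 had a CpG-rich start, and Pmp22 had both kinds. The CG count was also divided by the count expected from the C and G in the window. By that measure the Emp2 window, at 0.525, was above 59.6% of all windows, and the first Emp1 window, at 0.310, above 42.9%.

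Of 3 motifs searched on both strands, the AP-1 element TGANTCA occurred only at the first Emp1 start, as TGAGTCA beginning 145 bases and TGATTCA beginning 25 bases before it, and 7.81% of all windows held it. The E2F element GGCGGGA occurred only at Emp2, on the other strand as TCCCGCC beginning 33 bases before the start, and 11.3% of all windows held it. The E-box CACGTG, held by 7.15% of all windows, was in no window of the members. A match describes letters in a window and not a bound site.

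In the expression table the knockdown was visible in the targeted gene. Cbx6 was at 17.4 and 14.9 FPKM (fragments scaled to transcript length and library size) in the shCtl libraries, against 9.53 (replicate 1) and 5.40 (replicate 2) with shCbx6, a mean lower by 53.8%. Both shCbx6 libraries lay below both shCtl libraries, with the deeper reduction in replicate 2. The limma log2 difference of Cbx6 was −1.06 (SE 0.263, adjusted p = 0.247 over all tested genes). ESC markers were abundant in every library: the FPKM of 9 marker genes summed to 7735 and 8840 in shCtl, against 7090 and 6052 in shCbx6. Here and below a gene was tested where its mean reached 1 FPKM in either group, which 11592 genes did.

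Emp1, the family member best known from epithelia and from cells leaving the cell cycle, was the dominant transcript of the family in control ESCs and lost most of that level on knockdown. It was at 20.1 and 24.7 FPKM in the shCtl libraries and at 4.38 and 4.93 FPKM in the shCbx6 libraries. Both shCbx6 libraries were low and close to each other, and the groups did not overlap. The mean was 22.4 ± 3.28 FPKM (SD, n = 2) in shCtl and 4.66 ± 0.388 FPKM in shCbx6, which was 4.81-fold lower, a loss of 79.2%. The log2 difference on the scale of log2(FPKM + 1) was −2.04 (SE 0.160), the 35th largest fall among the tested genes. The Emp1 level stood above 68.8% of tested genes in shCtl and above 29.1% in shCbx6.

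Because Emp1 was chosen in this contrast, the shares of all tested genes are given only as context. A mean at least 1.5-fold lower was found for 6.56% of tested genes, and 24.4% had both shCbx6 libraries below both shCtl libraries. At an adjusted p under 0.05, limma called 11 genes, 0.0949% of those tested, 5 higher and 6 lower, and 1352 genes reached an unadjusted p under 0.05. Emp1 was selected in this contrast, so nothing is read from its place among these genes.

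**Figure D1:**
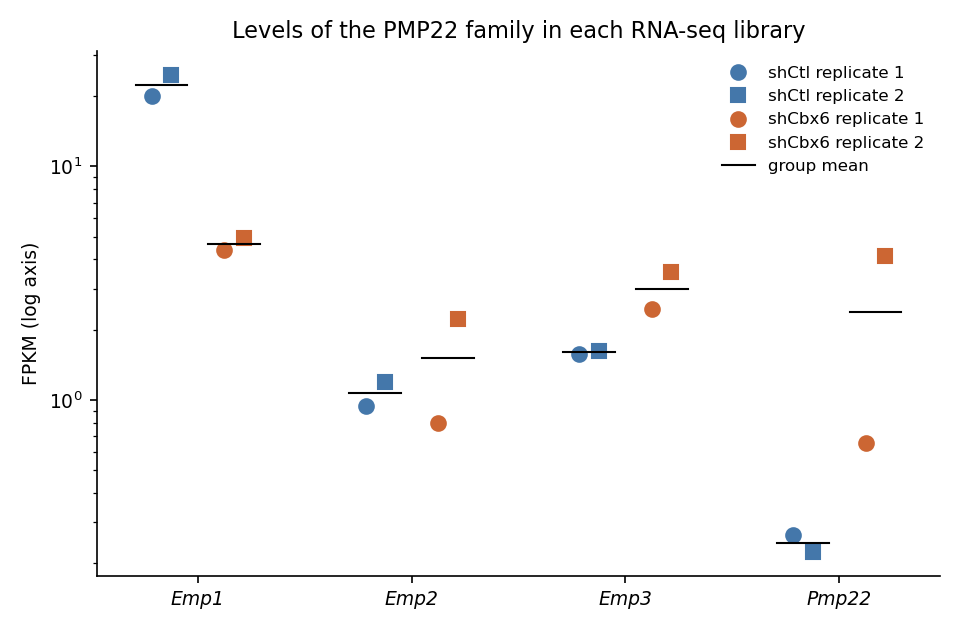
FPKM (log axis) of Emp1, Emp2, Emp3 and Pmp22 in each RNA-seq library, with shCtl in blue, shCbx6 in orange, replicate 1 as circles, replicate 2 as squares and group means as black lines. Emp1 fell from about 20.1 to 24.7 FPKM to 4.38 to 4.93 FPKM, while Pmp22 lay at 0.653 and 4.13 FPKM in the shCbx6 libraries.

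None of the 3 paralogs passed the limma threshold in either direction. Emp3 and Pmp22 were higher in both shCbx6 libraries than in both shCtl libraries, and Emp2 overlapped between groups. All 4 members passed the filter of 1 FPKM, but Pmp22 did so only through its shCbx6 mean, so its place among the tested genes already required a higher value there. As background, 7.63% of tested genes had a mean at least 1.5-fold higher in shCbx6, and 18.9% had both shCbx6 libraries above both shCtl libraries.

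Emp2, which in other cells acts on integrin trafficking and focal adhesion kinase, was at 0.943 and 1.20 FPKM in shCtl, against 0.801 and 2.23 FPKM in shCbx6. The lowest and the highest value were both shCbx6 libraries. The means were 1.07 ± 0.181 and 1.51 ± 1.01 FPKM (SD, n = 2), a ratio of 1.41. The log2 difference was 0.22 (SE 0.317, limma adjusted p = 0.844), with a 95% interval from −0.58 to 1.02. Without shCbx6 replicate 2 the difference turned to −0.20, so its sign rested on that library.

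Emp3, the shortest of the genes and a member expressed in many tissues, was at 1.58 and 1.62 FPKM in shCtl, against 2.45 and 3.53 FPKM in shCbx6. The shCtl libraries were nearly equal and both shCbx6 libraries lay above them. The means were 1.60 ± 0.0241 and 2.99 ± 0.764 FPKM (SD, n = 2), a ratio of 1.87. The log2 difference was 0.61 (SE 0.197, limma adjusted p = 0.347), with a 95% interval from 0.11 to 1.10 that takes no account of the number of genes tested. Leaving out each library in turn gave log2 differences from 0.41 to 0.80.

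Pmp22 was at 0.265 and 0.224 FPKM in shCtl, against 0.653 and 4.13 FPKM in shCbx6. It was the lowest member in both control libraries, and its shCbx6 libraries differed from each other by 6.32-fold. The gene passed the filter only through the higher of them, so that step is not ranked among the tested genes. The means were 0.244 ± 0.0288 and 2.39 ± 2.46 FPKM (SD, n = 2), a ratio of 9.78, with an SD in shCbx6 as large as the mean. The log2 difference was 1.23 (SE 0.535, limma adjusted p = 0.466), with a 95% interval from −0.12 to 2.58. Since passing the filter already required a higher shCbx6 value, this p and interval are a description and not a test of a rise. In shCbx6 replicate 1 alone Pmp22 was 2.67-fold above the shCtl mean and under the filter, on the log2 scale a difference of 0.41. Without that library the log2 difference was 2.04, for which no p is given because the gene then passed the filter through its highest library alone. With a pseudocount of 0.1 in place of 1 the log2 difference was 2.38.

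**Figure D2:**
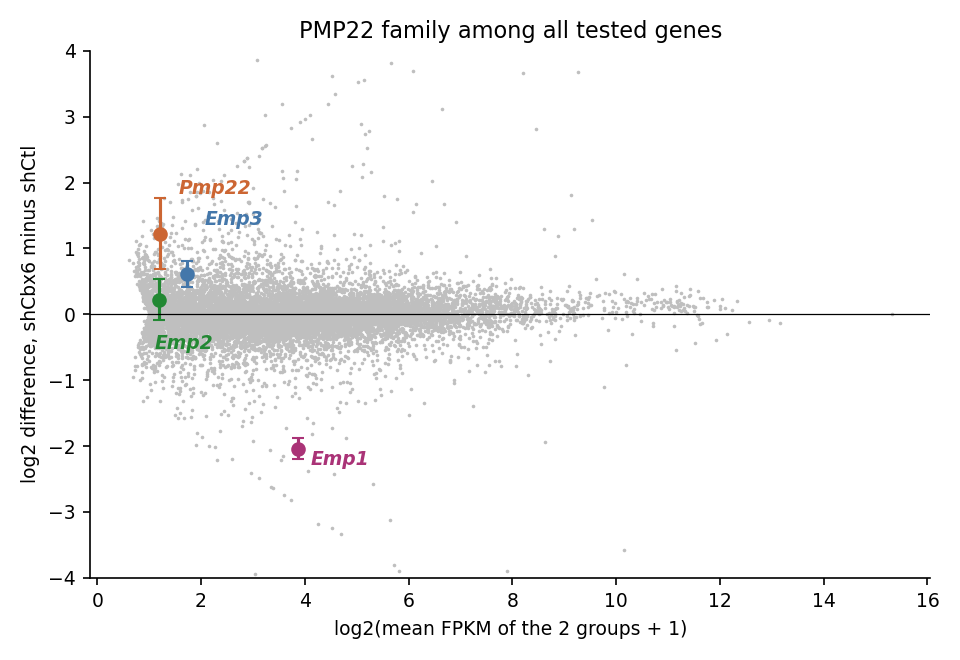
Log2 difference (shCbx6 minus shCtl, on the log2(FPKM + 1) scale) against log2 of the mean FPKM of the groups plus 1 for the tested genes in grey, with 23 genes beyond the plotted range, and the 4 members in colour with bars of 1 SE. Emp1 lies at −2.04, apart from Emp2 at 0.22, Emp3 at 0.61 and Pmp22 at 1.23.

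The shares of the members in the family are given as a description, since Emp1 was selected for its fall and Pmp22 passed the filter only through shCbx6. FPKM are scaled to transcript length, so levels of different genes may be set side by side. Emp1 made up 87.8% and 89.1% of the FPKM summed over the family in shCtl, and 52.9% and 33.3% in shCbx6. Pmp22 made up 1.16% and 0.808% in shCtl, against 7.88% and 27.9% in shCbx6. The sum over the 4 genes was 22.9 and 27.8 FPKM in shCtl, against 8.29 and 14.8 FPKM in shCbx6. In bulk RNA, fewer cells expressing a gene and less RNA in each cell cannot be told apart.

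The order of levels was Emp1, Emp3, Emp2, Pmp22 in both shCtl libraries and in shCbx6 replicate 1. In the shCtl libraries no neighbours in that order overlapped. In shCbx6 replicate 2 Pmp22 moved up to the second place, and Emp1 exceeded it by a factor of only 1.19, against 75.8 and 110.3 in shCtl and 6.71 in shCbx6 replicate 1. Across the shCbx6 libraries Emp1 did not overlap any paralog, Emp3 lay above Emp2, and Pmp22 overlapped both Emp3 and Emp2.

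Peaks of the Polycomb proteins were then looked for at the members. A gene was counted as having a peak where the list had one, by at least 1 bp, between 2.5 kb upstream of the start and the transcription end. In CBX6 replicate 1, the longest list with 21865 peaks, all 4 members had a peak, as did 56.9% of 21921 genes with coordinates. In CBX6 replicate 2 only Pmp22 had a peak, against 16.6% of all genes. CBX7 and RING1B had peaks at Emp2 and Pmp22, against 17.9% of all genes for CBX7 and 16.1% for RING1B. With 4 members no test was made. Scores, the authors' MACS scores, were compared only within a list, since different ChIP protocols were used for the HA and the RING1B samples.

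Emp1 (chr6:135312949-135333191) had only a weak peak of 1 list. The CBX6 replicate 1 peak at chr6:135314795-135315692 lay in an intron, 1846 to 2743 bp downstream of the first start, and covered neither of the 2 starts. Its score of 52.7 was above that of 4.99% of the peaks in the list, whose lowest score was 50.01. The nearest peaks of the other lists were 434485 bp (CBX6 replicate 2), 435089 bp (CBX7) and 434272 bp (RING1B) from that start. Emp1 thus had no peak over a start in any list.

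Emp2 (chr16:10281842-10314061) had peaks of 3 lists over its CpG-rich start. The CBX6 replicate 1 peak (chr16:10313025-10314327) scored 57.3, above 12.5% of its list. The CBX7 peak (chr16:10312859-10314720) scored 88.1, above 19.3% of its list, and the RING1B peak (chr16:10313293-10314649) scored 114, above 22.3%. All 3 covered the start and all were in the lower part of their lists. The nearest CBX6 replicate 2 peak was 317450 bp away.

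Emp3 (chr7:53173393-53176796) had no peak on its body. The CBX6 replicate 1 peak counted for it (chr7:53178574-53180398, score 110.5, above 59.5% of the list) lay 1778 to 3602 bp upstream of the first start and contained the start of the neighbouring gene Ccdc114. With a window of 2.5 kb the same peak therefore counted for both genes. The nearest peaks of CBX6 replicate 2, CBX7 and RING1B were between 86270 and 87104 bp from the Emp3 start.

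Pmp22 (chr11:62942484-62973049) had the broadest peaks of the family in CBX7 and RING1B, and the only one in CBX6 replicate 2. The CBX6 replicate 2 peak (chr11:62943958-62947188, 3231 bp) scored 385, above 72.5% of its list. The CBX7 peak (chr11:62943907-62947927, 4021 bp) scored 912.6, above 73.3%, and the RING1B peak (chr11:62944230-62947383, 3154 bp) scored 787, above 63.9%. These 3 peaks covered the same 4 of the 5 annotated starts, from the one shown above with 16 CG to the last, and left out the CpG-poor first start. CBX6 replicate 1 had 3 peaks at the gene, with scores of 92.8, 76.9 and 61.1, above 48.1%, 34.9% and 17.6% of that list, of which the middle one covered 3 starts.

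**Figure D3:**
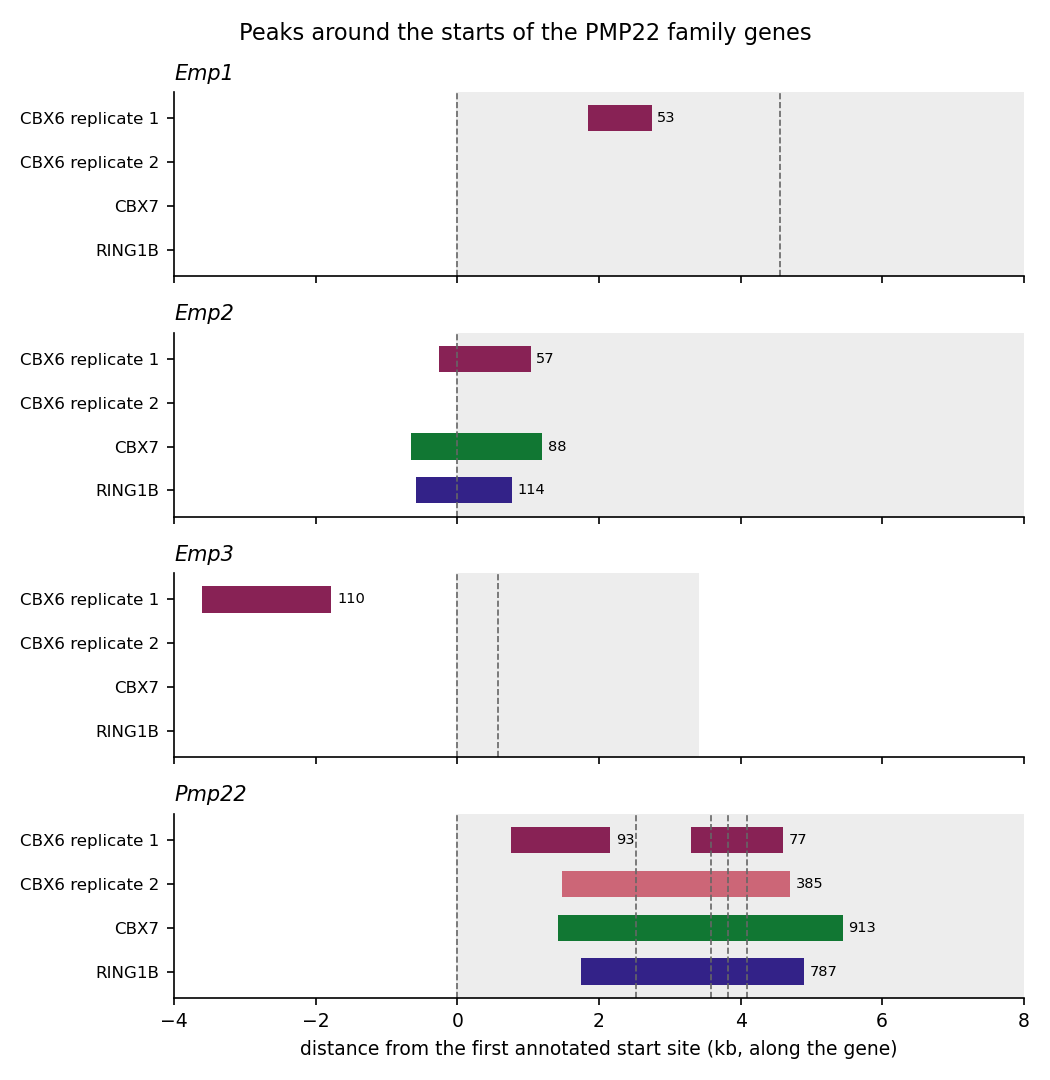
Peaks of the 4 lists (bars, with the authors' score at the right) around each gene, by distance in kb from the first annotated start along the gene, with the gene body shaded and annotated starts as dashed lines. CBX6 replicate 2, CBX7 and RING1B cover 4 of the 5 Pmp22 starts, CBX7 and RING1B the Emp2 start, and no list a start of Emp1 or Emp3. The third CBX6 replicate 1 peak of Pmp22 lies beyond the plotted range.

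The levels of the members in control cells may be set beside those of all genes with the same number of lists. Genes with a peak of exactly 1 list had a median of 10.7 FPKM in shCtl, and Emp1 at 22.4 and Emp3 at 1.60 FPKM were of this kind, as were 39.2% of genes. Emp2, with 3 lists, was at 1.07 FPKM, where the median of such genes was 0.385. Pmp22, with all 4 lists, was at 0.244 FPKM against a median of 0.196 FPKM for the 11.5% of genes with all 4. The 40.1% of genes with no peak had a median of 0.00626 FPKM.

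No gene beside Emp1 passed the limma threshold. Of the 6 tested genes within 500 kb of Emp1, the nearest were 8430419L09Rik, 118 kb away, and Hebp1, which encodes a heme-binding protein, 195 kb away. 8430419L09Rik was at 2.56 and 2.70 FPKM in shCtl, against 1.31 and 1.28 FPKM in shCbx6 (log2 difference −0.66, SE 0.162, limma adjusted p = 0.241). Hebp1 was at 21.0 and 30.1 FPKM and at 15.8 and 14.4 FPKM (log2 difference −0.70, SE 0.203, limma adjusted p = 0.301). Both had a mean over 1.5-fold lower, as had 6.56% of all tested genes, with groups that did not overlap, as for 24.4%. The 2 tested genes nearest to Emp1 had the lowest log2 differences of its 6 tested neighbours. Farther out, Gprc5a (0.24), Ddx47 (0.01), the cell cycle inhibitor Cdkn1b (−0.34) and Gpr19 (0.13) had log2 differences nearer 0.

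Beside the paralogs no tested gene had a mean 1.5-fold lower, against 6.56% of all tested genes. Within 500 kb, 7 genes beside Emp2, 24 beside Emp3 and 3 beside Pmp22 were tested, and none passed the limma threshold. The other genes in the table there, of 14, 45 and 8 in all, were under the filter and were not compared. Those 1.5-fold higher in mean, against 7.63% of all tested genes, were Socs1 beside Emp2, which had overlapping groups and passed the filter only through its shCbx6 mean, and Rasip1 and Dhdh beside Emp3, with log2 differences of 0.66 and 0.67 (limma adjusted p = 0.394 and 0.284). The genes that flank Emp3 at under 3 kb, Tmem143 and Ccdc114, had log2 differences of 0.07 each. The difference between neighbourhoods was not tested.

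**Figure D4:**
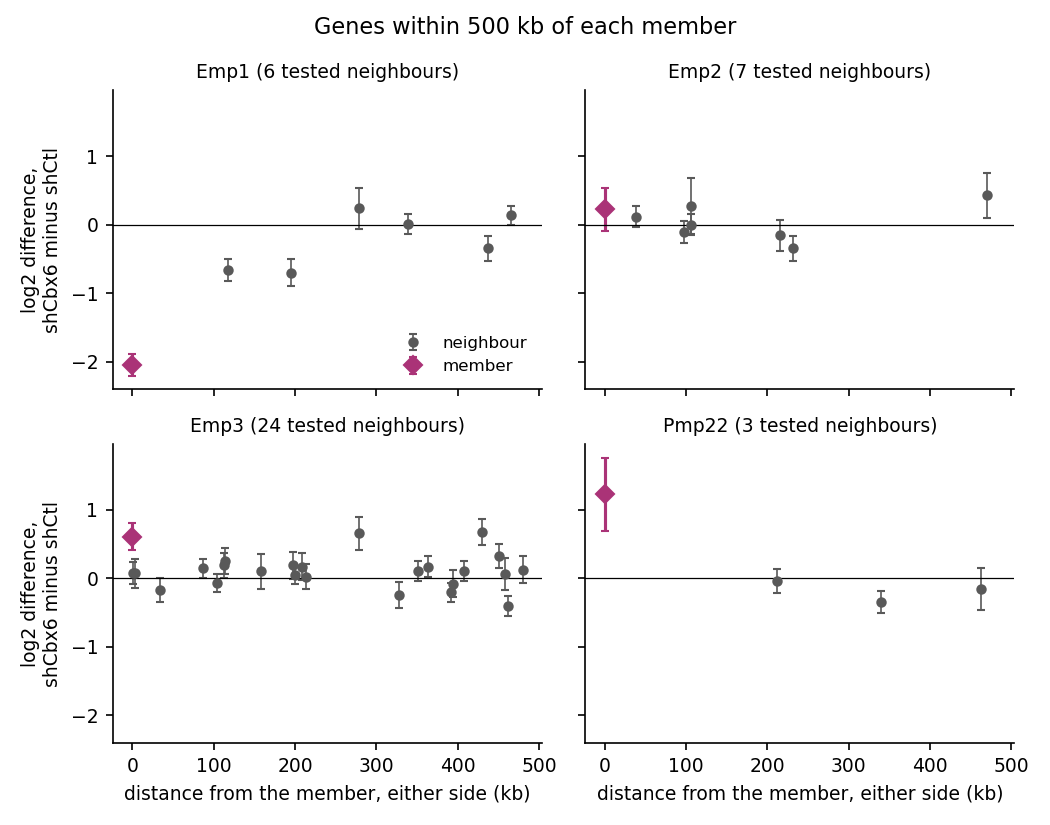
Log2 difference (shCbx6 minus shCtl) of each tested gene within 500 kb of a member against its distance in kb on either side, with the member as a diamond at 0 and bars of 1 SE. Beside Emp1 at −2.04, the nearest tested genes lie at −0.66 and −0.70, while the genes beside the paralogs range from −0.40 to 0.67.

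Other genes with library values like those of Emp1 were ranked by the root mean square difference of log2(FPKM + 1) after centring each gene on its mean over the 4 libraries. The nearest was Mapt (0.111), which encodes the microtubule protein tau, at 6.95 and 7.44 FPKM in shCtl, against 0.645 and 0.914 FPKM in shCbx6. Next came Khdc3 (0.178), which belongs to the maternal complex of the oocyte, the homeobox gene Nkx6-3 (0.213), Cpe (0.256), which encodes carboxypeptidase E, and Tex40 (0.284). For Pmp22 the nearest was the WNT ligand gene Wnt7b (0.0566), at 0.162 and 0.0941 FPKM in shCtl, against 0.608 and 4.04 FPKM in shCbx6, followed by the macrophage growth factor gene Csf1 and by Tinagl1. Nearest to Emp3 were Prpsap1, Arrdc1 and Klf7, and among the nearest to Emp2 were Arhgap10 and Lpl. With 4 libraries many genes share a pattern, and likeness is a description.

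Genes of the wider claudin superfamily were mostly under the filter, and no tested one passed the limma threshold. Of 10 relatives of the family outside the claudins, 8 were in the table and 2 were tested. Perp, a desmosome-associated p53 target, was at 3.81 and 4.99 FPKM in shCtl, against 5.01 and 14.6 FPKM in shCbx6 (log2 difference 0.85, limma adjusted p = 0.551). Tmem47 had a log2 difference of 0.27. Both had both shCbx6 libraries above both shCtl libraries, as had 18.9% of all tested genes. Perp was 1.5-fold higher in mean, but neither gene was without shCbx6 replicate 2. The median log2 difference was 0.56, against −0.01 over all tested genes.

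Claudins, the sealing and pore proteins of tight junctions, numbered 23 in the table, of which 5 were at 0 in every library and 6 were tested. No claudin passed the limma threshold, 4 of the 6 were at least 1.5-fold higher in mean and none was 1.5-fold lower, against 7.63% and 6.56% of all tested genes, and the median log2 difference was 0.95. Of those 4, Cldn9 passed the filter only through its shCbx6 mean, so its higher value was required for it to be counted. Cldn4, the most abundant, was at 33.2 and 48.5 FPKM in shCtl, against 51.1 and 63.9 FPKM in shCbx6 (log2 difference 0.50). Cldn7 had the largest difference, at 1.54 and 4.25 FPKM in shCtl, against 7.99 and 29.5 FPKM in shCbx6 (log2 difference 2.18, limma adjusted p = 0.308). The least was that of Cldn12, at 0.04. Like Pmp22, Cldn7 was highest in shCbx6 replicate 2. Without that library 3 of 5 tested claudins were 1.5-fold higher.

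Of 11 further tight junction genes, all tested, none passed the limma threshold, 6 were 1.5-fold higher and none 1.5-fold lower, beside the same 7.63% and 6.56% of all tested genes, with a median log2 difference of 0.46. Of those 6, Marveld2 and Marveld3 passed the filter only through their shCbx6 means. Cgn, which encodes the junction plaque protein cingulin, was at 4.24 and 3.85 FPKM in shCtl, against 8.42 and 14.3 FPKM in shCbx6 (log2 difference 1.25, limma adjusted p = 0.187). Magi1 had the lowest log2 difference, −0.20. Without shCbx6 replicate 2 only 2 of the 10 that could still be tested were 1.5-fold higher.

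Genes for the integrins, signalling and membrane partners tied to EMP proteins showed no common direction. Of 11, 8 were tested, none passed, 1 was 1.5-fold higher and 1 was 1.5-fold lower, against 7.63% and 6.56% of all tested genes, and the median log2 difference was −0.01. Without shCbx6 replicate 2, 2 were 1.5-fold lower. The integrin Itgb5 was at 7.98 and 7.62 FPKM in shCtl, against 13.8 and 14.6 FPKM in shCbx6 (log2 difference 0.79, limma adjusted p = 0.131). Itgb1, the most abundant, had a log2 difference of 0.25 and Itga6 the lowest, at −0.42 (limma adjusted p = 0.456). The gene 1.5-fold lower was P2rx7, an ATP-gated channel, with a log2 difference of −0.39.

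Of 9 genes of Schwann cell myelin, among which Pmp22 is known to act, 2 were tested, none passed the limma threshold, none was 1.5-fold higher and 1 was 1.5-fold lower, against 7.63% and 6.56% of all tested genes. Without shCbx6 replicate 1 both were 1.5-fold lower. Prx, which encodes periaxin and was the most abundant, was at 13.1 and 12.2 FPKM in shCtl, against 7.49 and 5.73 FPKM in shCbx6 (log2 difference −0.85, limma adjusted p = 0.185). Mbp, which encodes myelin basic protein and was too low to be tested, was at 0.293 and 0.296 FPKM with the control shRNA and at 0.488 and 0.801 FPKM with shCbx6, highest in replicate 2 like Pmp22. The summed FPKM of 6 Schwann cell markers was 0.527 and 0.493 in shCtl, against 0.631 and 1.14 in shCbx6, with S100b at 0 in 3 of the 4 libraries. Mbp made up most of that sum in every library.

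**Figure D5:**
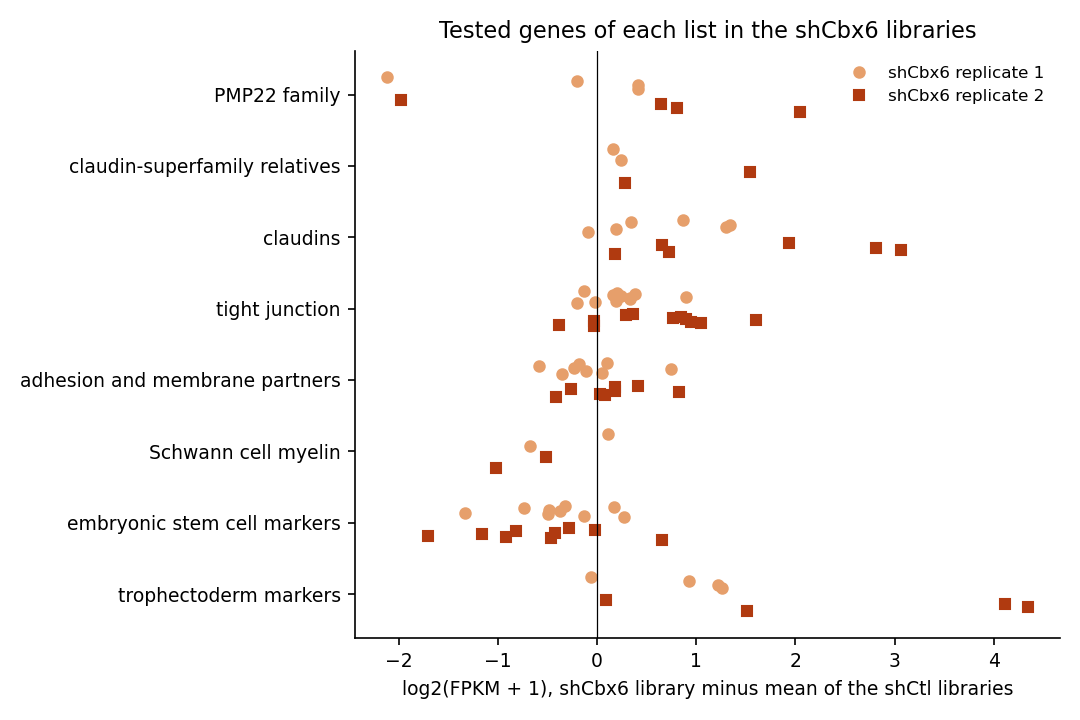
Difference of each shCbx6 library from the mean of the shCtl libraries, in log2(FPKM + 1), for every tested gene of the family, of the related lists and of the ESC and trophectoderm markers, with replicate 1 as circles and replicate 2 as squares. In every list shown except Schwann cell myelin, the point farthest to the right is of replicate 2.

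The sum of trophectoderm markers was highest in shCbx6 replicate 2, the library in which Pmp22 was highest too. The summed FPKM of 7 trophectoderm markers was 13.5 and 17.9 in shCtl, 34.6 in shCbx6 replicate 1 and 253 in shCbx6 replicate 2. Most of it came from the keratins Krt8, at 4.81, 7.25, 12.1 and 118.8 FPKM in the same order, and Krt18, which are expressed in simple epithelia generally. Tfap2c was at 2.84, 2.21, 7.41 and 9.04 FPKM in that order (log2 difference 1.39, limma adjusted p = 0.0895). Of the defining genes, Eomes was at 1.42 to 2.12 FPKM with overlapping groups, and others were low in every library but highest in shCbx6 replicate 2. Cdx2 was at 0.0156, 0.0615, 0.114 and 0.511 FPKM, Gata3 at 0.0301, 0.0396, 0.0944 and 0.489 FPKM, and Elf5 at no more than 0.0533 FPKM. Of the 7 markers 4 were tested, 3 had both shCbx6 libraries above both shCtl libraries, as did 18.9% of all tested genes, and none passed the limma threshold.

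Fibroblast markers, 8 genes with Lum at 0 in every library, summed to 2.29 and 2.33 FPKM in shCtl and to 1.71 and 5.39 FPKM in shCbx6. The sum of 6 primitive endoderm markers was 1.52 and 1.38 FPKM with the control shRNA and 1.14 and 1.07 FPKM with shCbx6. Its members did not move alike: Sox7, Pdgfra and Foxa2 were lower in both shCbx6 libraries, Gata6 and Sox17 were higher in both, and Gata4 overlapped between groups. That of 4 mesoderm markers was 0.460 and 0.412 FPKM, then 0.779 and 1.18 FPKM, of which T, the brachyury gene, was at 0.0984 and 0.0324 FPKM, then 0.446 and 0.771 FPKM, while Kdr was lower in both shCbx6 libraries. Of the 9 ESC markers, all tested, 7 had both shCbx6 libraries below both shCtl libraries and 1 had them above, where 24.4% and 18.9% of all tested genes did, and none passed the limma threshold. A mean 1.5-fold lower was found for 4 of them, where 6.56% of all tested genes had it, among them Klf4, at 91.1 and 96.7 FPKM with the control shRNA and at 36.7 and 28.0 FPKM with shCbx6, and Nanog, at 320.7 and 358.7 FPKM and at 203.5 and 191.6 FPKM. Dppa5a alone made up most of the summed FPKM of the ESC markers. Emp1 was low in both shCbx6 libraries alike, whereas Emp2, Emp3, Pmp22, Perp, the 6 tested claudins and the keratins were highest in replicate 2. Among them Cldn12 was nearly flat, with a log2 difference of 0.04. How many of all tested genes were highest in that library was not counted, so this ordering is not read as a trait of the genes named. The part of these cell markers in the members' values was not tested.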

How the data were processed

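RNA-seq was measured in 4 libraries and ChIP-seq read as 4 peak lists. The authors aligned RNA-seq reads to mm9 with TopHat, keeping uniquely mapped reads, and the deposited FPKM per gene were made with Cufflinks on RefSeq. The deposited FPKM hold no counts, so the depth behind a value is unknown, and a few abundant transcripts lower all others. ChIP-seq reads were aligned to mm9 with Bowtie, and the authors called peaks per sample with MACS, whose score is in the deposited lists. The control of each peak call is not given in the sources used here.

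From these values, group means, their ratio and limma (version 3.58.1, R 4.3.3, eBayes with trend, without a replicate term) on log2(FPKM + 1) were obtained wherever the mean of a group reached 1 FPKM, with Benjamini-Hochberg adjustment over all 11592 such genes. An exact permutation test of 2 against 2 libraries cannot go below p = 0.333 and was not used. This fit was first tested on simulated data. Of 23288 symbols, 21149 were matched to GENCODE coordinates on mm9 by name and 772 by synonym. Sequences were read from mm9, and promoter windows of RefSeq served as background. The members and gene lists were chosen with earlier results of these data known. Named are the members, every tested neighbour that the text describes, the nearest patterns, and in each list the most abundant, highest and lowest tested gene, and P2rx7, Mbp, Cldn9, Marveld2, Marveld3, T, Kdr, Nanog, Grwd1, the primitive endoderm markers, Cdx2, Gata3, Elf5, Eomes, Krt8, Tfap2c and S100b were named after their values were seen. Some genes that this rule names are not reported here. Alternatives covered the pseudocount, filter, scaling, a replicate block, each library left out, and the peak score, overlap and window. Same-numbered libraries deviated together with a correlation over genes of 0.266, over 2 pairs that no label ties to a shared culture, so they were not treated as paired.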

Additional observations from a re-analysis of the deposited data

How the results depend on the processing

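The log2 difference of Emp1 kept its sign under every alternative, at −2.24 with a pseudocount of 0.1 and between −2.19 and −1.90 with each library left out. Leaving out libraries gave −0.20 to 0.64 for Emp2, with −0.20 without shCbx6 replicate 2, then 0.41 to 0.80 for Emp3 and 1.20 to 2.04 for Pmp22, with 2.04 without shCbx6 replicate 1. Where a group is left with 1 library, that library is assumed to vary like the other group. Pmp22 was under the filter and could not be fitted without shCbx6 replicate 2, where its log2 difference was 0.41, and no paralog could be at a mean of 5 FPKM. A fit with the replicate block, on numbers that no label ties to a shared culture, left the log2 differences at −2.04, 0.22, 0.61 and 1.23, called no paralog, and raised the limma calls over all genes from 11 to 388. Those calls numbered 17 with a pseudocount of 0.1, 2 without a filter, and 19 to 398 with a library left out. Genes 1.5-fold higher numbered 3739 without a filter, 411 at 5 FPKM and 1414 without shCbx6 replicate 1, against 885, and genes 1.5-fold lower 2357, 386 and 1179, against 761. With peak scores of at least 100, the members with a peak went from 4 to 1 (Emp3) in CBX6 replicate 1 and from 2 to 1 (Pmp22) in CBX7. Keeping CBX6 peaks found in both replicates left 1 (Pmp22) of 4 in replicate 1. The counts of gene lists without either shCbx6 library were added after seeing the data. The cause of these shifts was not tested. With 2 libraries per group and no counts, changes of low genes are poorly resolved.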

Other observations

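Each EMP gene has a gene for an NMDA receptor subunit of the Grin2 family within 500 kb, a feature noticed after the values were seen. Grin2b lies 347 kb from Emp1, Grin2a 287 kb from Emp2 and Grin2d 47.1 kb from Emp3. All 3 were nearly silent, with a highest value in any library of 0.0330 FPKM for Grin2b, 0.0415 FPKM for Grin2a and 0.372 FPKM for Grin2d. Each had a peak of all 4 lists between 2.5 kb upstream of its start and its end, as did 11.5% of all genes, although these genes span 444, 417 and 39.0 kb and long genes offer more room for a peak. Within 2.5 kb of the start, Grin2b and Grin2a kept all 4 lists, as did 9.99% of all genes, and Grin2d had 1. The nearest CBX6 replicate 2 peak to Emp2 (chr16:9994699-9996611) covered the Grin2a start, and the nearest to Emp3 (chr7:53087800-53089692) lay at the far end of Grin2d, beside Grwd1, which also had a peak of all 4 lists and was at 52.2 to 60.9 FPKM. The 3 Grin2 genes were not tested for expression, since they were under 1 FPKM.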
